A study of Homo sapiens with 9 samples.

Results

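The genes that carry TGF-beta signals in the 3 HaCaT lines were examined, from the secreted ligands to the transcription factors and their inhibitors. The set was chosen by gene name: TGFB1 and TGFB2 (ligands), TGFBR1, TGFBR2 and TGFBR3 (receptors), SMAD2, SMAD3 and SMAD4 (signal transducers), and SMAD7 and SKIL (inhibitors). All 10 genes had probe sets on the array, 35 probe sets of 54613, and they are 10 of the 19775 genes measured. The rule sets no threshold on a measured value.

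The arrays compared NLS-actin cells, WT-actin cells and parental HaCaT cells, with 3 arrays per line and 9 arrays in all. HaCaT is an immortalised line of human epidermal keratinocytes, and all 3 lines share that origin and were kept in serum-containing medium. NLS-actin cells carry β-actin fused to GFP and a nuclear localization sequence, which concentrates actin in the nucleus, and WT-actin cells carry the GFP-tagged β-actin without that sequence. Both were made by transfection with linearized plasmids and G418 selection to a stable GFP-positive population, whereas parental cells were not transfected. Each construct is represented by 1 stable line, so construct and line cannot be told apart. The methods name 3 experimental replicates per line, but neither they nor the numbered labels say whether these were separate cultures. The p values therefore measure the spread between these arrays, which may be technical. The methods name no TGF-beta treatment of these cells, so the values are levels in serum-fed culture.

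TGF-beta ligands are secreted in a latent form and released by integrins and proteases. The active dimer binds the type II receptor, which recruits and phosphorylates the type I receptor, while the type III receptor betaglycan presents the ligand at the surface. The type I receptor phosphorylates SMAD2 and SMAD3, which join SMAD4, enter the nucleus and bind DNA at short CAGAC elements. SMAD7 blocks the receptor and SKIL, also called SnoN, represses SMAD complexes. In keratinocytes the pathway is known for stopping proliferation and for inducing matrix genes and migration, and MRTF and SRF, the coactivator and factor that monomeric actin restrains, share some of its target genes.

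The 250 bases upstream of an annotated start are shown for TGFB2 and TGFBR3, the genes of the 10 that passed the threshold for NLS-actin against parental cells in any alternative fit, in 1 and 2 of 21, and for BAMBI, the decoy receptor gene that fell in NLS-actin cells. They come from RefSeq, build GRCh38.p14, and are written 5′ to 3′ on the gene's strand. Capitals mark CAGAC, the SMAD-binding letters, on either strand, and TATAAA, the TATA box letters. The TGFB2 window is chr1:218345086-218345335 on the plus strand, the TGFBR3 window is chr1:91886152-91886401 on the minus strand and the BAMBI window is chr10:28677271-28677520 on the plus strand. The TGFBR3 gene spans 91680343 to 91906002, so its window lies inside the gene, before an inner start. Bases upstream of its outermost start are not shown.
TGFB2: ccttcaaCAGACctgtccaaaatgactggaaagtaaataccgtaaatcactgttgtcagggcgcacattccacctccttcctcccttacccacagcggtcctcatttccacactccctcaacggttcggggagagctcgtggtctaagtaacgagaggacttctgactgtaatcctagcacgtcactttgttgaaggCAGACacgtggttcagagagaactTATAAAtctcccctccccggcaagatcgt
TGFBR3: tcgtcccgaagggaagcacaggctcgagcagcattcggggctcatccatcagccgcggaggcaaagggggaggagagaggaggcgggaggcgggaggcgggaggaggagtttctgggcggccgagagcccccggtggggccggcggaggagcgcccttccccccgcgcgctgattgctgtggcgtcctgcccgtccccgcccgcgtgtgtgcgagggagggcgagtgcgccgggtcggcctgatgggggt
BAMBI: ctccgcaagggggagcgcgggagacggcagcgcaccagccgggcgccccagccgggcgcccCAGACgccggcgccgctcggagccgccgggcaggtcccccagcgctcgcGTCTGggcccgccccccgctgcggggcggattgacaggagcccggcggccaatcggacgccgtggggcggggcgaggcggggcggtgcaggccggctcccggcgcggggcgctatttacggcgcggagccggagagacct

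The TGFB2 window held 2 CAGAC matches and 1 TATAAA match at 50.4% GC, and these matches do not overlap. The TGFBR3 window held neither at 73.6% GC, and the BAMBI window held 2 CAGAC matches, 1 on each strand, and no TATAAA at 81.2% GC. Among the 250 bases upstream of all 35116 annotated starts, searched on both strands, 38% held CAGAC and 10.7% held TATAAA. The CArG box, the SRF-binding motif, was present in 1.16% of all windows and in 1 of the 25 windows listed for the 10 genes, a TGFBR1 window. These matches describe letters only, and binding was not measured.

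Keratinocyte markers were bright on every array. The summed signal of 5 markers (KRT5, KRT14, ITGA6, ITGB4 and DSG3) was 32530 to 37170 in NLS-actin cells, 28290 to 37890 in WT-actin cells and 23440 to 31650 in parental cells. TP63, KRT6A and COL17A1 were also listed but had no probe set with a single gene symbol. Of the other cell types listed, fibroblast markers had the highest sums, 474.5 to 1184 in NLS-actin cells, 303.8 to 1132 in WT-actin cells and 480.7 to 964.2 in parental cells, mostly from COL1A1. Sums over different genes depend on the brightness of their probes, so they do not measure the share of a cell type. The ACTB signal ranged between 13886 and 15475 in NLS-actin cells, between 14097 and 22131 in WT-actin cells and between 8874 and 14977 in parental cells. Where its probes lie relative to the transfected coding sequence was not examined, so it is no check of the labels. NLS-actin 2, WT-actin 1 and parental 2 stood apart from the rest of their lines in a like way, on a component that carried 57.9% of within-line variance over genes above the median level. They lay at 0.526, 0.479 and 0.357 along it, against -0.365 (WT-actin 3) to -0.0805 (parental 1) on the other 6 arrays. The WT-actin and parental arrays were thus graded along it rather than split cleanly. NLS-actin 2, WT-actin 1 and parental 2 had the highest ratio of 3′ to 5′ ACTB control signal in their line. The ratios were 12.8, 14.9 and 7.96 in that order, against 3.82 to 7.98 on the other 6 arrays. Both transfected lines carry a β-actin construct, and where the control probes lie relative to it was not examined. The ratio may therefore not measure RNA quality alone.

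No gene of the 10 passed the threshold of an adjusted p of 0.05 in any comparison, by limma with Benjamini-Hochberg adjustment over all genes. Between NLS-actin and parental cells 0 of 10 were called against 0.131% of all genes, and 2 of 10 (TGFBR2 and TGFBR3, both lower) had an unadjusted p under 0.05 against 6.44% of all genes, 3.96% in this direction. Between WT-actin and parental cells 0 of 10 were called against 0.167% of all genes, and 0 of 10 had an unadjusted p under 0.05 against 6.69%. Between NLS-actin and WT-actin cells 0 of 10 were called against 0.728% of all genes, and 0 of 10 had an unadjusted p under 0.05 against 9.47%. The median log2 fold change of the 10 genes was 0.03 in NLS-actin against parental cells, beside -0.01 over all genes, and -0.02 in WT-actin against parental cells, beside -0.06 over all genes. Groups that do not overlap, with all 3 arrays of 1 line on the same side of all 3 of the other, were found for TGFB1, TGFBR2 and TGFBR3 (all lower) between NLS-actin and parental cells, 3 of 10 against 13.9% of all genes, 7.5% in this direction. Between WT-actin and parental cells 0 of 10 were separated in this way against 12.3%, and between NLS-actin and WT-actin cells SMAD7 (higher) and TGFBR2 (lower) were, 2 of 10 against 13.9%, of which 8.12% were higher and 5.73% lower. Differences were positive for 5 of the 10 genes in each comparison, against 49.4% of all genes between NLS-actin and parental cells, 43.7% between WT-actin and parental cells and 53.4% between NLS-actin and WT-actin cells.

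**Figure D1:**
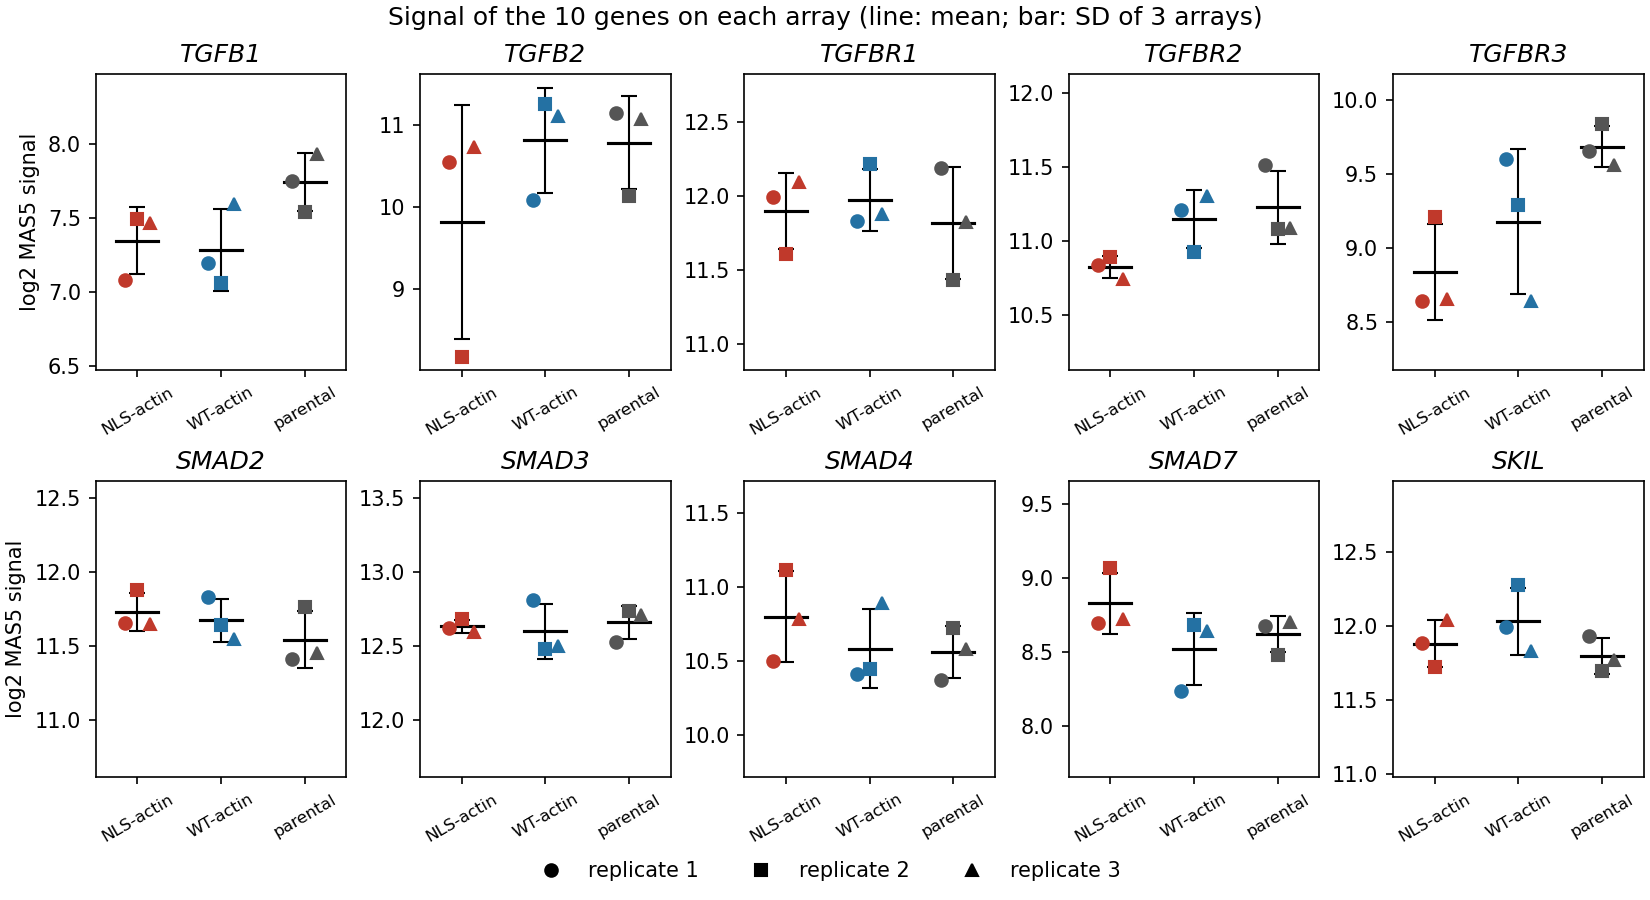
log2 MAS5 signal of each of the 10 genes (vertical axis) on the 3 NLS-actin, 3 WT-actin and 3 parental arrays, with replicate numbers as symbols, the line mean as a horizontal bar and the SD of 3 arrays as an error bar; every panel spans the same range of log2 units except TGFB2. TGFBR3 sits lower on the 3 NLS-actin arrays than on the 3 parental arrays, and the NLS-actin 2 array is far below the others for TGFB2.

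The plot of signals by array shows all values that follow. Signals are MAS5 intensities, and each gene is read from 1 probe set, the one whose log2 signal was highest on average. Signals of different genes cannot be set against each other, since probes differ in brightness.

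TGFB1 encodes the ligand whose latent form is stored in the matrix. Its signal was 135.8, 180.1 and 176.8 in NLS-actin cells, 146.8, 133.5 and 193.5 in WT-actin cells, and 215.3, 186.5 and 245.0 in parental cells. All 3 NLS-actin arrays lay below the lowest parental array, while 1 WT-actin array exceeded it. It was at -0.40 on the log2 scale for NLS-actin against parental cells (SE 0.27, adjusted p = 0.85, limma) and -0.46 for WT-actin against parental cells (adjusted p = 0.78). NLS-actin and WT-actin cells differed by 0.06 (95% interval -0.52 to 0.64), less than the spread between arrays, so the order from high to low was parental, NLS-actin, WT-actin with no neighbours separated by the test. A second, dimmer TGFB1 probe set had the opposite sign for NLS-actin against parental cells, 0.49, with signals of 5.81 to 22.6 over those 6 arrays, and the mean of both probe sets gave 0.05.

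TGFB2, the ligand that keratinocytes also secrete, varied more within lines than any other gene of the set. The signal was 1495, 290.1 and 1700 in NLS-actin cells, 1086, 2445 and 2217 in WT-actin cells, and 2270, 1125 and 2161 in parental cells. The lowest array of each line was NLS-actin 2, WT-actin 1 and parental 2, the 3 arrays that stood apart, and the lines overlapped. The means were 1162 ± 762 in NLS-actin cells, 1916 ± 728 in WT-actin cells and 1852 ± 632 in parental cells (SD, n = 3 each). The log2 fold change for NLS-actin against parental cells was -0.97 (1.96-fold lower, SE 0.57, adjusted p = 0.82, limma). It was -0.999 between NLS-actin and WT-actin cells (adjusted p = 0.66) and 0.03 between WT-actin and parental cells (adjusted p = 0.99). The within-line SD was 0.96 on the log2 scale, against a median of 0.24 for genes above the median level. Without the NLS-actin 2 array the difference was -0.15 against parental cells and -0.18 against WT-actin cells. Without the 3 arrays that stood apart it was -0.47 against parental cells (adjusted p = 0.48) and -0.55 against WT-actin cells (adjusted p = 0.21). With the 3′ to 5′ ACTB ratio as a covariate it was -0.45 (adjusted p = 0.86).

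The replicate numbers were taken to pair the NLS-actin and parental arrays, by the check given with the processing, but the labels name no pairing. NLS-actin 1 correlated more with parental 3 than with parental 1, so the pairs of numbers 1 and 3 are not established. TGFB2 was lower in NLS-actin cells in 3 of 3 pairs, with log2 ratios of -0.60, -1.96 and -0.35. In a fit of these 6 arrays with the number as a block, added after the data had been seen, its adjusted p was 0.046 (limma). The same fit called 378 genes of 19775, against 26 without the block and with the WT-actin arrays, and the difference itself stayed at -0.97. With the block for these 6 arrays inside the fit of all 9, the adjusted p of TGFB2 was 0.49. The pairs were chosen from correlated residuals of these same arrays, a choice that favours small p values in a fit with the block. The p values of the 6-array fit, here and below, therefore do not count as independent support.

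**Figure D2:**
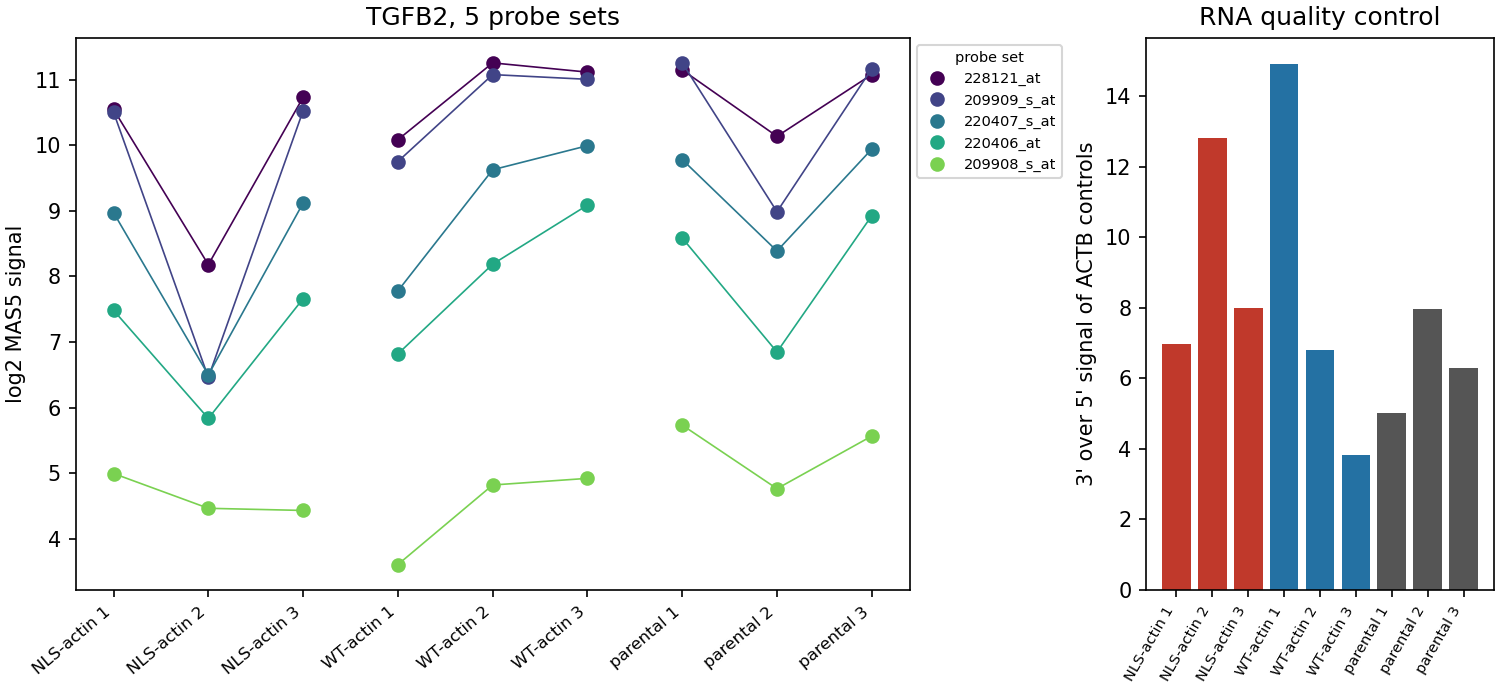
Left, log2 MAS5 signal of the 5 TGFB2 probe sets (vertical axis) on each array, with lines joining the arrays of 1 line only to guide the eye. Right, the ratio of 3′ to 5′ ACTB control signal on each array, as bars from 0. In 4 of the 5 probe sets NLS-actin 2, WT-actin 1 and parental 2 are the lowest array of their line, and the same 3 arrays have the highest ratio.

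In the plot of probe sets, 4 of the 5 TGFB2 probe sets had their lowest signal of each line on NLS-actin 2, WT-actin 1 and parental 2. The NLS-actin against parental difference was negative in 5 of 5, with log2 fold changes between -1.31 and -0.72, and no probe set was called (smallest adjusted p = 0.84, limma over 54613 probe sets). The second brightest of them was at 1450, 88.2 and 1474 in NLS-actin cells, 862.4, 2160 and 2055 in WT-actin cells, and 2446, 507.4 and 2299 in parental cells. Being lowest in its line on these 3 arrays was found for 2 of the 10 genes (TGFB2 and TGFBR1), against 9.2% of all genes. Being highest was found for 3 (TGFBR3, SMAD2 and SMAD3), against 15.5%. These counts read each gene from its brightest probe set. The second brightest SMAD2 probe set was instead the lowest of its line on these arrays, and the second TGFBR3 probe set was neither. The part of RNA quality in the TGFB2 difference was not tested beyond the covariate above, which may not measure RNA quality alone.

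TGFBR1, the type I receptor kinase, differed between lines by less than the spread between arrays. Its signal was 4082, 3128 and 4377 in NLS-actin cells, 3655, 4755 and 3763 in WT-actin cells, and 4678, 2770 and 3634 in parental cells. The lines overlapped in all 3 comparisons, and the lowest signal of the 9 was in parental 2. The log2 fold changes were 0.08 for NLS-actin against parental cells (95% interval -0.36 to 0.52), 0.16 for WT-actin against parental cells (95% interval -0.28 to 0.60) and -0.08 between NLS-actin and WT-actin cells. Of its 3 probe sets, 2 were positive and 1 negative between NLS-actin and parental cells. The negative one, the dimmest, with signals of 2.59 to 63.4, was at -1.77. Across 21 alternatives the NLS-actin against parental difference ran from -0.56 to 0.27.

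TGFBR2, the type II receptor that binds ligand first, was lower in NLS-actin cells by a small margin that did not pass adjustment. Its signal was 1828, 1904 and 1717 in NLS-actin cells, 2374, 1947 and 2528 in WT-actin cells, and 2923, 2174 and 2176 in parental cells. Every NLS-actin array was below every array of the other lines, and WT-actin and parental arrays overlapped. The log2 fold change for NLS-actin against parental cells was -0.40 (1.32-fold lower, SE 0.16, 95% interval -0.76 to -0.05, unadjusted p = 0.029, adjusted p = 0.69, limma), and the 3 pairs were at -0.68, -0.19 and -0.34. Without parental 1, the highest array, it was -0.26 (adjusted p = 0.9994). The 6-array fit with the block gave an adjusted p of 0.17. NLS-actin against WT-actin cells was at -0.32 (adjusted p = 0.59) and WT-actin against parental cells at -0.08 (adjusted p = 0.95). The second TGFBR2 probe set, with signals of 4.61 to 28.3, also had a negative difference between NLS-actin and parental cells, -0.88.

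TGFBR3, the betaglycan co-receptor that captures ligand and helps TGFB2 in particular to reach the type II receptor, had the smallest p of the 10 genes between NLS-actin and parental cells. Its signal was 398.4, 592.3 and 402.7 in NLS-actin cells, 777.2, 624.1 and 398.2 in WT-actin cells, and 807.0, 914.5 and 753.5 in parental cells. Every NLS-actin array was below every parental array, while the WT-actin arrays spread over both ranges. The means were 464.5 ± 111 in NLS-actin cells, 599.8 ± 191 in WT-actin cells and 825 ± 82.0 in parental cells (SD, n = 3 each). The log2 fold change for NLS-actin against parental cells was -0.85 (1.80-fold lower, SE 0.26, 95% interval -1.41 to -0.29, unadjusted p = 0.0062, adjusted p = 0.41, limma). WT-actin against parental cells was at -0.51 (95% interval -1.07 to 0.05, adjusted p = 0.76) and NLS-actin against WT-actin cells at -0.34 (95% interval -0.90 to 0.22), so WT-actin cells lay between the other lines and were separated from neither. Without WT-actin 3 the WT-actin against parental difference was -0.24. The 3 pairs were at -1.02, -0.63 and -0.90, and their common sign follows, for any pairing, from the lack of overlap. The 6-array fit with the block gave an adjusted p of 0.012, and the block for these 6 arrays inside the fit of all 9 gave 0.34. With the 3′ to 5′ ACTB ratio as a covariate the difference was -1.10 (adjusted p = 0.022), and without the 3 arrays that stood apart it was -0.96 (adjusted p = 0.24). Across 21 alternatives it stayed negative, between -1.10 and -0.75, with adjusted p values from 0.012 to 0.91, under the threshold in 2.

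The second, dimmer TGFBR3 probe set was lower in the same direction. Its signal was 45.8, 37.8 and 31.5 in NLS-actin cells, 95.8, 49.2 and 63.2 in WT-actin cells, and 98.0, 84.7 and 57.9 in parental cells. All 3 NLS-actin arrays were below all 6 arrays of the other lines. Its log2 fold change for NLS-actin against parental cells was -1.05 (unadjusted p = 0.021), which is past an unadjusted p of 0.05 and a fold of 2, the thresholds that the study's methods give. TGFBR3 was the only gene of the 10 past these thresholds in any probe set between NLS-actin and parental cells, 1 of 10 against 6.41% of all genes.

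**Figure D3:**
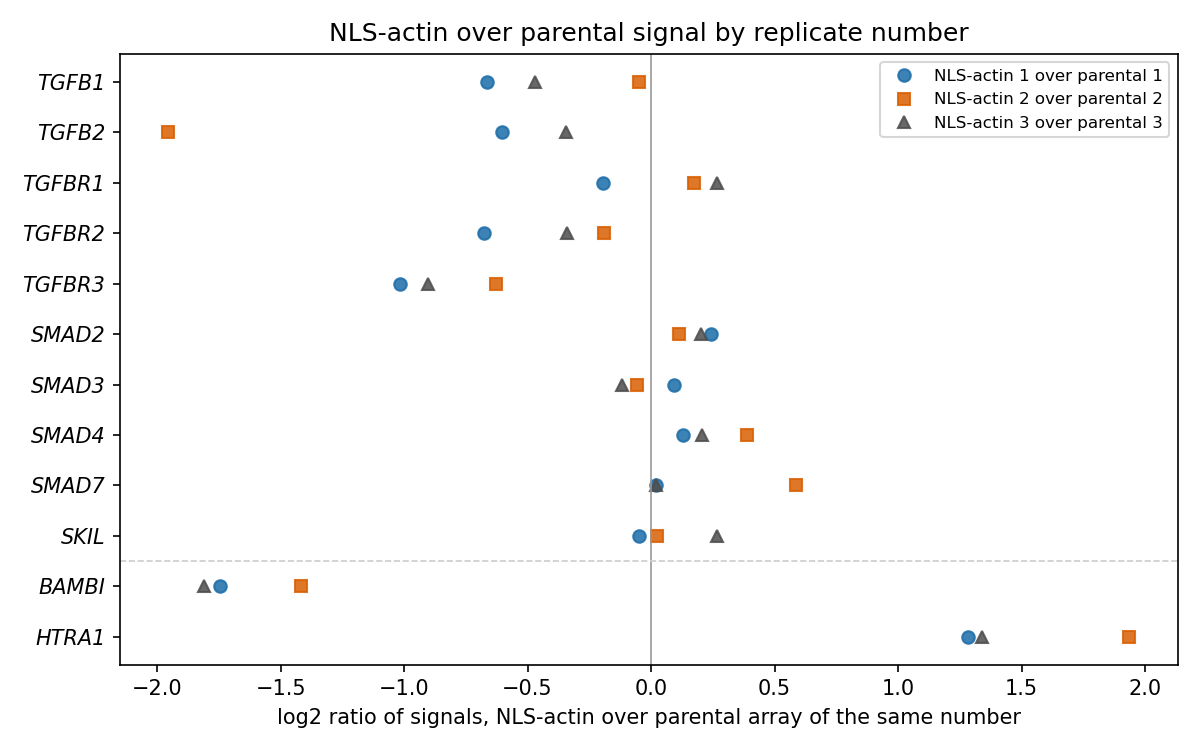
log2 ratio of the NLS-actin signal over the parental signal of the same replicate number (horizontal axis) for the 10 genes and, under the dashed line, BAMBI and HTRA1; the 3 symbols are the 3 pairs. TGFB1, TGFB2, TGFBR2, TGFBR3 and BAMBI have all 3 ratios below 0, and TGFBR3 lies between -1.02 and -0.63.

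The plot of pair ratios sets the ligands and receptors beside the SMADs. All 3 ratios were below 0 for TGFB1, TGFB2, TGFBR2 and TGFBR3 and above 0 for SMAD2, SMAD4 and SMAD7, while TGFBR1, SMAD3 and SKIL had ratios on both sides. For TGFB1, TGFBR2 and TGFBR3 the common sign follows from the lack of overlap, whichever arrays are paired. The signs of the other genes can change with the pairing.

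SMAD2, a receptor-activated SMAD, was close in all lines. Its signal was 3224, 3761 and 3217 in NLS-actin cells, 3646, 3192 and 2996 in WT-actin cells, and 2724, 3474 and 2799 in parental cells, and the lines overlapped. The difference was 0.19 for NLS-actin against parental cells (95% interval -0.13 to 0.51) and 0.13 for WT-actin against parental cells (95% interval -0.19 to 0.45). Of its 6 probe sets, 4 were positive and 2 negative between NLS-actin and parental cells.

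SMAD3, the receptor-activated SMAD that binds DNA directly, had the smallest within-line spread of the 10 genes, an SD of 0.13 on the log2 scale. Its signal was 6311, 6573 and 6186 in NLS-actin cells, 7204, 5721 and 5810 in WT-actin cells, and 5911, 6844 and 6710 in parental cells. The lines overlapped, and the differences were -0.03 for NLS-actin against parental cells (95% interval -0.31 to 0.26), -0.06 for WT-actin against parental cells (95% interval -0.34 to 0.22) and 0.03 between NLS-actin and WT-actin cells. All 4 SMAD3 probe sets had a negative difference for WT-actin against parental cells, but of unlike size. The dimmest of them was at 25.7, 19.4 and 17.4 in NLS-actin cells, 3.45, 6.53 and 3.68 in WT-actin cells, and 18.6, 26.6 and 18.5 in parental cells. It was lower on every WT-actin array, but all 3 WT-actin signals were under 8.08, the 25th percentile of signals over all arrays, so no fold is given. This probe set alone took SMAD3 past the study's thresholds, 1 of 10 genes for WT-actin against parental cells, against 5.53% of all genes, and 1 of 10 between NLS-actin and WT-actin cells, against 8.23%, and both counts rest on those dim signals. The second brightest differed in the same direction, by -0.52 for WT-actin against parental cells (unadjusted p = 0.0085), and no SMAD3 probe set passed adjustment (smallest adjusted p = 0.26).

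SMAD4, the shared partner of the activated SMADs, had signals of 1452, 2217 and 1769 in NLS-actin cells, 1367, 1395 and 1904 in WT-actin cells, and 1328, 1696 and 1535 in parental cells. The lines overlapped, with the highest signal in NLS-actin 2. The difference was 0.24 for NLS-actin against parental cells (95% interval -0.19 to 0.67) and 0.02 for WT-actin against parental cells (95% interval -0.40 to 0.45), and 4 of its 5 probe sets were positive in each of these comparisons.

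SMAD7, the inhibitory SMAD that TGF-beta itself induces, was represented by 1 probe set. Its signal was 415.0, 536.6 and 422.6 in NLS-actin cells, 302.0, 409.9 and 399.3 in WT-actin cells, and 408.8, 357.3 and 417.0 in parental cells. Every NLS-actin array was above every WT-actin array, by 1.24-fold on average (log2 fold change 0.31, 95% interval -0.15 to 0.77, adjusted p = 0.74, limma). Without the 3 arrays that stood apart this difference was 0.05. Against parental cells the difference was 0.21 in NLS-actin cells (adjusted p = 0.90) and -0.10 in WT-actin cells (adjusted p = 0.96), with overlapping arrays.

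SKIL, the SMAD co-repressor that is degraded on TGF-beta signalling and then induced by it, had signals of 3770, 3371 and 4200 in NLS-actin cells, 4063, 4958 and 3636 in WT-actin cells, and 3895, 3312 and 3488 in parental cells. The lines overlapped. The largest difference was 0.23 for WT-actin against parental cells (95% interval -0.10 to 0.56), and NLS-actin cells were at 0.08 against parental cells and -0.15 against WT-actin cells. Of its 5 probe sets, 4 were negative and 1 positive between NLS-actin and parental cells, from -0.81 to 0.08. Across 21 alternatives this difference ran from -0.31 to 0.16.

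**Figure D4:**
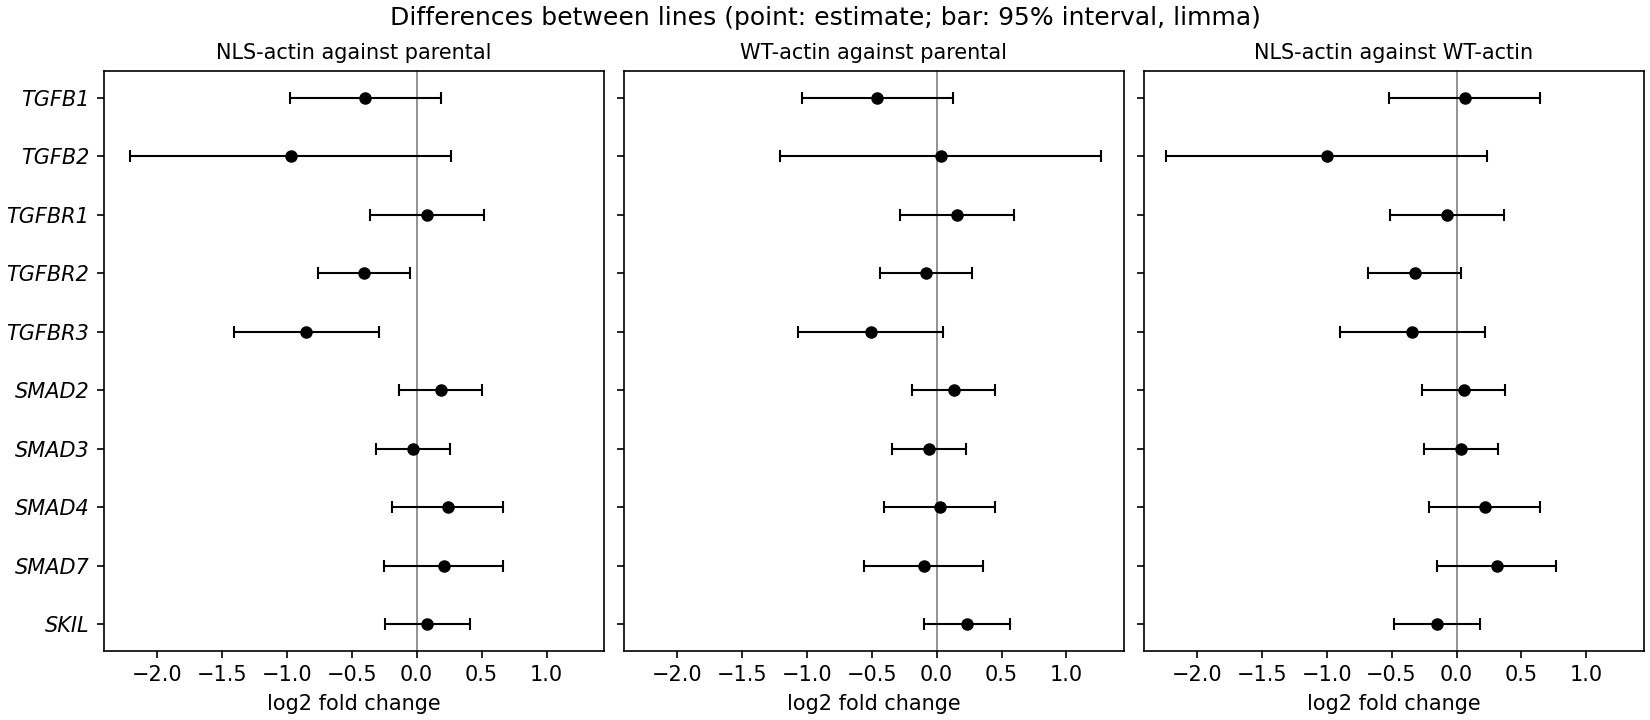
log2 fold change of the 10 genes (horizontal axis) in NLS-actin against parental, WT-actin against parental and NLS-actin against WT-actin cells, as points with 95% intervals from limma, unadjusted for the number of genes. The intervals of TGFBR2 and TGFBR3 lie below 0 in the first panel, and those of TGFB2 are the widest.

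The intervals in the plot of differences set limits on what 3 arrays per line could show. For the brightest probe sets of SMAD2, SMAD3, SMAD4, SMAD7, SKIL and TGFBR1, the 95% intervals of NLS-actin against parental cells all lay between -0.36 and 0.67. A change of 2-fold in either direction was outside them. Dimmer probe sets do not set this limit: the dimmest of TGFBR1 had an interval of -4.20 to 0.65 and that of SMAD2 an interval of -1.02 to 3.95. For TGFB2 the interval was -2.20 to 0.27.

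The signals of 3 genes were most like those of TGFB2 over the 9 arrays, out of 9886 genes above the median level: TFPI2, KIAA1586 and COL12A1, with Pearson r of 0.986, 0.985 and 0.98. For TGFBR3 they were TPCN2, HELZ2 and TSPAN6, with r of 0.95, 0.936 and 0.928. For TGFB1 they were LACTB, CCDC32 and KATNAL1, with r of 0.887, 0.881 and 0.865. The 9 arrays share the lines and the within-line axis, so these values only describe the likeness.

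Of the 74 other pathway genes listed, 68 had a probe set. They were grouped as ligands and their activation (11 measured), receptors and receptor partners (10), SMAD regulators (14), cytostatic targets (6), matrix and other targets (18) and genes of epithelial-mesenchymal transition (9). Between NLS-actin and parental cells 1 of the 68 was called, lower, against 0.111% of all genes called lower, and 8 had an unadjusted p under 0.05, against 6.44% of all genes. Between WT-actin and parental cells 0 of 68 were called by limma, against 0.167% of all genes, and 7 had an unadjusted p under 0.05, against 6.69%. Between NLS-actin and WT-actin cells 2 of 68 were called, both higher, against 0.389% of all genes called higher, and 9 had an unadjusted p under 0.05, against 9.47%. The median log2 fold change of the 68 genes was -0.06 for NLS-actin against parental cells, 0.10 for WT-actin against parental cells and -0.10 between NLS-actin and WT-actin cells, beside -0.01, -0.06 and 0.03 over all genes.

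**Figure D5:**
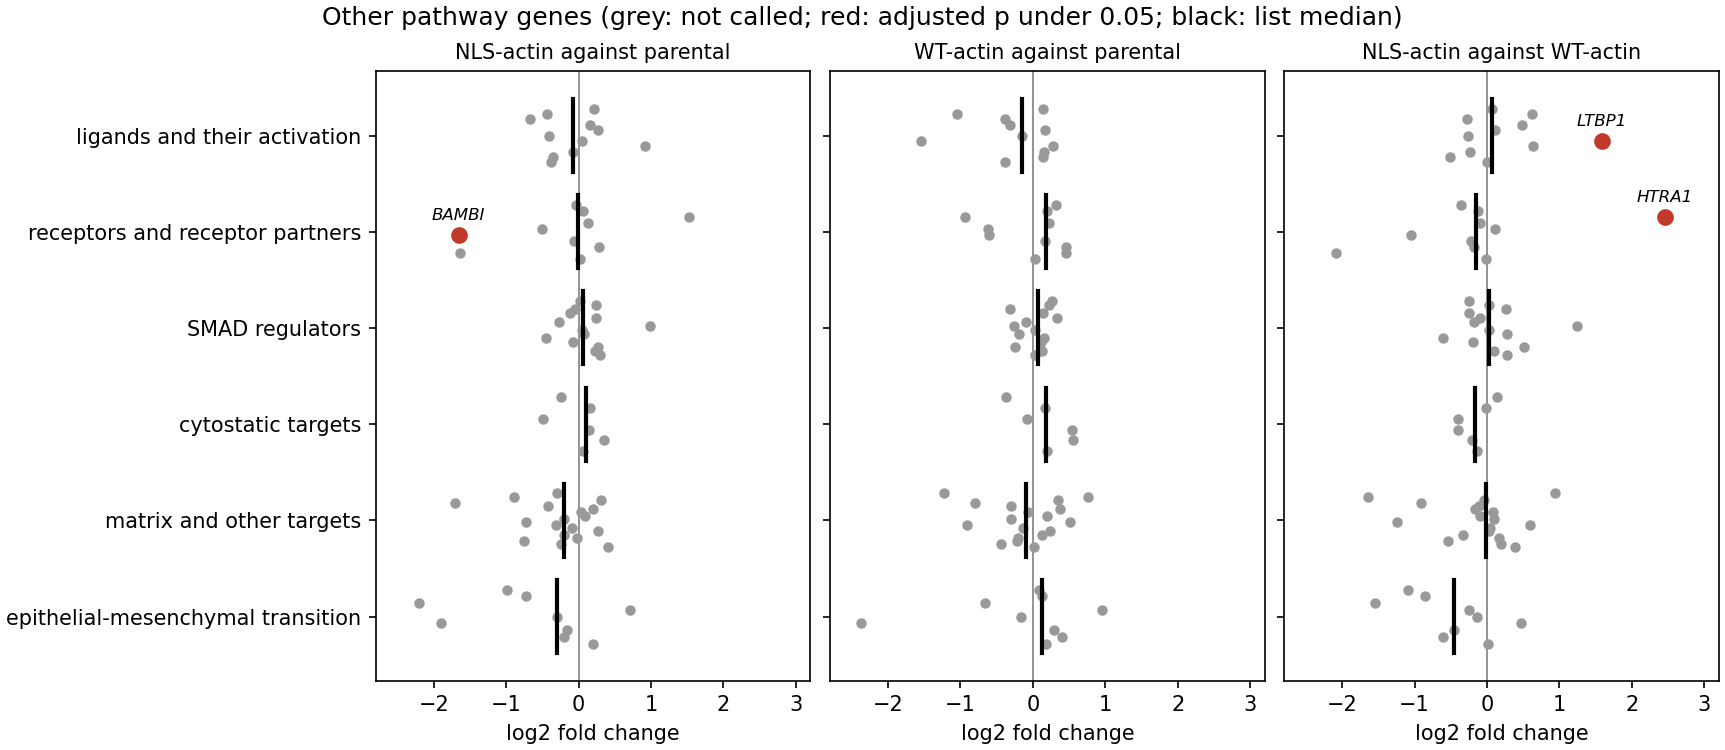
log2 fold change (horizontal axis) of the 68 other pathway genes by list, in NLS-actin against parental, WT-actin against parental and NLS-actin against WT-actin cells; each point is 1 gene, the black bar is the median of the list and red points passed an adjusted p of 0.05. BAMBI is called in the first panel at -1.66, and LTBP1 and HTRA1 in the third at 1.58 and 2.46.

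BAMBI, a decoy that resembles the type I receptor but lacks a kinase, fell in NLS-actin cells. It was represented by 1 probe set, so alternatives that choose among or average probe sets could not change its difference. Its signal was 202.9, 151.6 and 154.5 in NLS-actin cells, 371.4, 370.0 and 310.3 in WT-actin cells, and 679.8, 405.1 and 542.1 in parental cells. The 3 lines did not overlap, with NLS-actin cells lowest and parental cells highest. The log2 fold change for NLS-actin against parental cells was -1.66 (3.16-fold lower, SE 0.25, adjusted p = 0.026, limma), and the pairs were at -1.75, -1.42 and -1.81. NLS-actin against WT-actin cells was at -1.05 (adjusted p = 0.096) and WT-actin against parental cells at -0.60 (adjusted p = 0.69). BAMBI passed the threshold in 12 of 21 alternatives, with adjusted p values from 0.00059 to 0.25, and the difference stayed between -1.85 and -1.48. The call was lost when parental 1, parental 3, WT-actin 2 or any 1 of the NLS-actin arrays was left out (adjusted p between 0.056 and 0.25).

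HTRA1, a secreted serine protease reported to cleave TGF-beta pathway proteins, was higher in NLS-actin than in WT-actin cells. It too was represented by 1 probe set, with the same limit. Its signal was 862.1, 1420 and 705.7 in NLS-actin cells, 238.3, 124.5 and 175.7 in WT-actin cells, and 354.2, 370.8 and 278.4 in parental cells. No 2 lines overlapped, with parental cells in the middle. Between NLS-actin and WT-actin cells the log2 fold change was 2.46 (5.49-fold, SE 0.30, adjusted p = 0.0025, limma) and passed in 20 of 20 alternatives. Against parental cells it was 1.52 in NLS-actin cells (adjusted p = 0.12) and -0.94 in WT-actin cells (adjusted p = 0.53), so only the comparison with WT-actin cells was called. For NLS-actin against parental cells the 6-array fit with the block gave an adjusted p of 0.00041 and the block for these 6 arrays inside the fit of all 9 gave 0.065, and 1 of 21 alternatives passed.

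LTBP1, which tethers latent TGF-beta to the matrix, was also higher in NLS-actin than in WT-actin cells. Its signal was 361.2, 592.4 and 416.5 in NLS-actin cells, 206.6, 109.7 and 146.0 in WT-actin cells, and 566.1, 449.6 and 320.9 in parental cells. NLS-actin and parental arrays overlapped, and all 3 WT-actin arrays lay below them. On the log2 scale the difference was 1.58 for NLS-actin against WT-actin cells (2.997-fold, SE 0.31, adjusted p = 0.038, limma), 0.04 for NLS-actin against parental cells (adjusted p = 0.99) and -1.54 for WT-actin against parental cells (adjusted p = 0.11). The call between NLS-actin and WT-actin cells held in 9 of 20 alternatives, with adjusted p values from 0.018 to 0.18, and it was lost without parental 1, parental 2, WT-actin 2, WT-actin 3 or any 1 of the NLS-actin arrays.

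No other listed gene was called in any comparison. Among ligands and their activation, ITGAV, the integrin subunit that takes part in releasing latent TGF-beta, had means of 3589 ± 494 in NLS-actin cells, 5107 ± 792 in WT-actin cells and 4594 ± 430 in parental cells (SD, n = 3 each), with log2 fold changes of -0.51 for NLS-actin against WT-actin cells (adjusted p = 0.25; -0.33 without the 3 arrays that stood apart) and -0.36 for NLS-actin against parental cells (adjusted p = 0.75). LTBP2, a matrix protein of the same family as LTBP1, was at -0.42 for NLS-actin against parental cells (adjusted p = 0.82), and TGFB3, the third ligand, at -0.44 (adjusted p = 0.87). TGFB3 was at -1.05 for WT-actin against parental cells (adjusted p = 0.56). With its probe sets averaged, both TGFB3 differences turned positive, to 0.16 for NLS-actin and 0.59 for WT-actin cells against parental cells. Without parental 1 the LTBP2 difference was -0.23. ACVR1C, a type I receptor for activin-like ligands, had signals under 18 on every array, and FKBP1A, which binds the resting type I receptor, differed by 0.13 between NLS-actin and parental cells (adjusted p = 0.91).

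Among SMAD regulators, the inhibitory SMAD6 had signals of 1086, 1161 and 1549 in NLS-actin cells, 1098, 778.9 and 172.3 in WT-actin cells, and 829.3, 835.2 and 364.5 in parental cells. Its 3 NLS-actin arrays were above its 3 parental arrays, with a log2 fold change of 0.98 (adjusted p = 0.82), and the 6-array fit with the block gave an adjusted p of 0.066. It was 0.59 without parental 3 and 0.27 with its probe sets averaged. CREBBP, a SMAD coactivator, was at 0.30 (adjusted p = 0.71), and the ubiquitin ligases SMURF1 and SMURF2 at -0.27 and 0.24 (adjusted p = 0.85 and 0.86), all for NLS-actin against parental cells.

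Of the 6 cytostatic targets, 4 had a positive and 2 a negative difference between NLS-actin and parental cells. The early-response gene KLF10 was at -0.49 (adjusted p = 0.71) and MYC, which TGF-beta represses, at -0.24 (adjusted p = 0.91). The cell cycle inhibitor CDKN1A was at 0.35 (adjusted p = 0.92) and the cell cycle phosphatase CDC25A at 0.05 (adjusted p = 0.99). CDKN1A was highest of its line, and CDC25A lowest, on the 3 arrays that stood apart. Without NLS-actin 2 the CDKN1A difference turned to -0.23, and without all 3 of those arrays it was 0.02.

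Among the 18 matrix and other targets, FN1 (fibronectin) had signals of 4929, 1616 and 5640 in NLS-actin cells, 8308, 7817 and 9147 in WT-actin cells, and 5743, 4371 and 8090 in parental cells. All NLS-actin arrays were below all WT-actin arrays, with a log2 fold change of -1.24 (adjusted p = 0.23), and NLS-actin against parental cells was at -0.73 (adjusted p = 0.81). Without NLS-actin 2, where FN1 was lowest, these differences were -0.67 and -0.16. TGFBI, a matrix protein named for its induction by TGF-beta, differed by 0.30 between NLS-actin and parental cells (adjusted p = 0.82), and the growth factor gene PDGFB, with signals of 7.62 to 114, by -1.71 (adjusted p = 0.77). These differences were 0.10 for TGFBI with quantile normalization and -1.04 for PDGFB without NLS-actin 2.

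In the list of epithelial-mesenchymal transition, 7 of 9 genes had a negative difference between NLS-actin and parental cells, with a median of -0.30, beside 49.4% of all genes positive and a median of -0.01. Of these 7 genes, 4 (SNAI1, ZEB1, ZEB2 and VIM) were at or under 27.4 on all arrays. The rest were not dim, with signals over all arrays of 2762 to 8959 for the cadherin gene CDH2, 1385 to 3561 for HMGA2 and 671 to 1593 for SNAI2. Their differences between NLS-actin and parental cells were -0.21, -0.16 and -0.30. The epithelial cadherin CDH1 was bright, at 10301 ± 550 in NLS-actin cells, 10181 ± 875 in WT-actin cells and 9025 ± 1530 in parental cells (SD, n = 3 each). The highest signal of any array was 27.4 for the mesenchymal filament gene VIM and 12.3 for the transcription factor gene SNAI1. The transcription factor gene TWIST1 was at 380.9 ± 111 in NLS-actin cells, 446.0 ± 104 in WT-actin cells and 227.6 ± 28.6 in parental cells (SD, n = 3 each), above every parental array in both transfected lines, with log2 fold changes against parental cells of 0.71 in NLS-actin cells (adjusted p = 0.66) and 0.95 in WT-actin cells (adjusted p = 0.39). These comparisons share the parental arrays.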

How the data were processed

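RNA of NLS-actin, WT-actin and parental HaCaT cells was hybridised to U133 Plus 2.0 arrays, 3 for each line. Deposited values are MAS5 signals made by the authors, linear intensities scaled to a trimmed mean of 500.04 to 500.06 on each array (medians 29.67 to 43.26); the number of arrays limits the precision, and a version of MAS5 is not given in the sources used here. Signals were taken to log2 with no offset or filter. Of 54675 probe sets, 62 controls were left out; 41091 had 1 gene symbol, 1801 several and 11721 none, and those with 1 symbol gave 19775 genes, each read from the probe set that was brightest in log2 signal on average. The model was fitted in limma 3.58.1 (R 4.3.3) over all 9 arrays, with 1 mean per line, an intensity trend and Benjamini-Hochberg adjustment over all genes in each comparison, at a threshold of 0.05. The fit was tested on simulated data, but no outcome of that test is given here, so it does not vouch for the calls.

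The numbers of the NLS-actin and parental arrays were taken as pairs because residuals of same-numbered arrays correlated at 0.234, 0.79 and 0.416, each over 0.1, across 9887 genes above the median level. NLS-actin 1 correlated more with parental 3 (0.534) than with parental 1, so the pair of number 2 is the most distinct. The WT-actin numbers did not pair with the parental (-0.0766, -0.355 and 0.515) or NLS-actin numbers (-0.596, -0.401 and 0.16). The alternatives were quantile normalization, an offset, a filter on dim probe sets, no trend, the replicate block, 2 lines only, other probe set choices, the 3′ to 5′ ACTB ratio as a covariate, leaving out arrays, and Tukey's test for the study's p and fold thresholds.

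The rule for the 10 genes names them and uses no measured value, but it and the lists were chosen with earlier results of these data known. All 10 genes were named, and of each pathway list every called gene, the 3 with the smallest p in NLS-actin against parental cells and the brightest, with the 3 genes most correlated to each of the 3 genes whose line means ranged most. TIMP3, CDH2, HMGA2, SNAI2, ZEB1 and ZEB2 are named outside this rule, after their values were seen. Promoter windows came from RefSeq (GRCh38.p14), which listed 25 for the 10 genes.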

Additional observations from a re-analysis of the deposited data

How the results depend on the processing

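With 3 arrays per line, calls over all genes moved with the fit. Between NLS-actin and parental cells 26 genes were called, against 10 without the intensity trend, 15 in a fit of 2 lines only, 10 with the mean of all probe sets, 64 with the 3′ to 5′ ACTB ratio as a covariate and 378 with the replicate block over the 6 NLS-actin and parental arrays, an alternative added after the data had been seen; leaving out 1 array gave 4 to 27. Between WT-actin and parental cells 33 were called, against 12 without the trend, 21 with the replicate block within parental and NLS-actin arrays, 14 with probe sets averaged and 84 with the covariate; leaving out 1 array gave 9 to 42. Between NLS-actin and WT-actin cells 144 were called, against 76, 63, 82 and 307 under these 4 settings and 67 in a fit of 2 lines; leaving out 1 array gave 66 to 124.

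Of the 10 genes, the count between NLS-actin and parental cells was 0, but 1 (TGFBR3) with the covariate and 2 (TGFB2 and TGFBR3) with the added 6-array block; it was 0 under the other alternatives, and 0 in the other comparisons under all of them. Of the 68 pathway genes, the count between NLS-actin and parental cells was 1, but 0 with quantile normalization, without the trend and in a fit of 2 lines, 2 (BAMBI and HTRA1) with the 6-array block, and 0 to 1 when 1 array was left out. Between WT-actin and parental cells it was 0, but 2 (LTBP1 and TIMP3) with the covariate. Between NLS-actin and WT-actin cells it was 2, but 1 (HTRA1) without the trend, with the replicate block within parental and NLS-actin arrays, in a fit of 2 lines and with probe sets averaged, and 1 to 2 when 1 array was left out. The replicate block over all 9 arrays gave 19, 35 and 162 genes in the 3 comparisons and changed no call of the 10 or the 68 genes. The count past the study's p and fold thresholds was 1 of 10 with limma and with Tukey's test in each comparison. The causes of these shifts were not tested.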
